A study of Mus musculus with 22 samples.

Results

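The genes described here are 10 genes of mast cells and basophils, chosen by symbol from the deposited count tables: Mcpt8, Prss34, Cpa3, Hdc, Fcer1a, Ms4a2, Kit, Gata1, Gata2 and Itga2b. They are 10 of the 35255 genes listed over the 3 tables, and each of the 10 was found in every table. RNA of C57BL/6N mouse cells, wild type (WT) or with a knockout (KO) of VISTA, an inhibitory checkpoint receptor encoded by Vsir, was sequenced in 22 libraries. Bone marrow myeloid progenitors were grown with GM-CSF and IL-6 and sampled at day 4 in normoxia, with 4 WT and 4 KO libraries. Bone marrow myeloid cells labelled hypoxia, with 24 hours as their time point, gave another 4 WT and 4 KO libraries. MC38, a mouse colon carcinoma line, was grown as tumors that gave 3 WT and 3 KO libraries at day 7. The labels call these samples tumor tissue, with no word on a purification of myeloid cells. The name of their deposited counts, however, holds MDSC, the abbreviation of myeloid-derived suppressor cells. How the knockout was made is not given in the sources used here. The cytokines are stated for the normoxia cultures, which are also the only ones stated to be independent biological replicates. For the hypoxia and tumor libraries a p-value measures the spread between samples, which may be technical.

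Mast cells and basophils are granulocytes that carry the high-affinity IgE receptor FceRI and release histamine and proteases from their granules when the receptor is cross-linked. Both arise from bone marrow progenitors under the transcription factor GATA2, with GATA1 acting beside it, and basophils and eosinophils share early steps of this route. GM-CSF cultures of bone marrow mainly give neutrophils, monocytes and their immature forms, so mast cells and basophils would be a side population there. Which cells gave the transcripts described here was not tested.

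The stretches before 4 of the 10 genes are shown because they hold the 6-base motif bound by GATA factors, and 2 of the 10 genes code for such factors. Windows of 250 bases before each RefSeq start (GRCm38.p6) were searched on both strands for AGATAA, for the form AGATAG that ends in G, for TGATAA, which opens with T, and for TGATAG, which does both. Of the 10 genes, 5 held at least 1 of them (Prss34, Cpa3, Hdc, Fcer1a and Ms4a2), in 5 of their 12 windows, and 26.54% of all 32851 windows did. That of Hdc lies inside the gene as GENCODE annotates it. The bases of Fcer1a lie at chr1:173227230-173227349, those of Cpa3 at chr3:20242182-20242301 and those of Ms4a2 at chr19:11623720-11623953, all on the minus strand. Those of Prss34 lie at chr17:25298274-25298393 on the plus strand. Each sequence ends at the base before the RefSeq start and reads 5′ to 3′ along the gene, with the motif in capitals (TTATCT is AGATAA on the other strand).
Fcer1a: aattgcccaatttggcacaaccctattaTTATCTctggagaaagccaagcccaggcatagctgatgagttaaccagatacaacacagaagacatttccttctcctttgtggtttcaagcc
Cpa3: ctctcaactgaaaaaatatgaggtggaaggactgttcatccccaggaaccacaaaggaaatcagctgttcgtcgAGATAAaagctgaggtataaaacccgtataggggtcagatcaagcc
Prss34: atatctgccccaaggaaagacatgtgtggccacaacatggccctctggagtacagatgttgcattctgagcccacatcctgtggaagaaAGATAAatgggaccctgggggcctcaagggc
Ms4a2: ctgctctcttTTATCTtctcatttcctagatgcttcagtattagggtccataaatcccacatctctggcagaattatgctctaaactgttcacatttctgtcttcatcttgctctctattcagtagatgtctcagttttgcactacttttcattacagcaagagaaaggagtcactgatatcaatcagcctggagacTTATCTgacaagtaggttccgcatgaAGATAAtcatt
The motif begins 46 bases before the start in Cpa3, 31 in Prss34 and 92 in Fcer1a, and Ms4a2 holds it at 224, 37 and 11 bases. The core bound by hypoxia-inducible factors (ACGTG or GCGTG) was found in 3 of the 12 windows, against 38.6% of all windows. Both windows of Kit share 1 match, and the match of Gata2 lies inside the annotated gene, before an internal RefSeq start. These matches describe letters only.

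Depth per library ran from 23409142 to 23722932 counts for normoxia, from 30839108 to 31385825 for hypoxia, from 27452024 to 31716200 for WT tumors and from 19119985 to 23089943 for KO tumors. Vsir, the targeted gene, lay at 628 to 818 CPM in WT and 132 to 237 CPM in KO normoxia cultures, at 534 to 630.3 and 117 to 171 CPM in hypoxia, and at 427 to 480.3 and 113 to 128 CPM in tumors. An earlier analysis of these data placed normoxia WT replicate 3 and KO replicate 4 apart from the other libraries, so the normoxia results are also given without them. CPM is the count scaled by TMM to a fixed library size, with the 16 culture libraries scaled together and the tumor libraries on their own. A gene is said to have risen or fallen where its edgeR adjusted p, over all genes tested in that comparison, was under 0.05.

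All 10 genes were higher in VISTA KO than in WT hypoxia cultures, and the 8 that could be tested in normoxia were higher in KO there too. The rises ran from 1.41-fold to 2.39-fold and took in granule proteases, the histamine enzyme, the IgE receptor, Kit and the GATA factors alike. In normoxia 8 of 8 tested genes rose, against 7.13% of the 13950 genes tested. In hypoxia 10 of 10 rose, against 17.4% of 15018. The groups did not overlap for 7 of the 8 genes in normoxia (10.7% of all tested genes were that much higher) and for 8 of the 10 in hypoxia (16.9%). The median log2 fold change was 0.95 in normoxia and 0.78 in hypoxia, beside −0.02 and −0.01 over all tested genes. Fcer1a and Gata1 had too few counts to be tested in normoxia. In normoxia 8 genes rose without the 2 libraries that stood apart, 5 without WT replicate 1, 2 or 4, and 6 with scaling by library size alone. In bulk RNA, more cells of a type and more RNA per cell cannot be told apart.

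**Figure D1:**
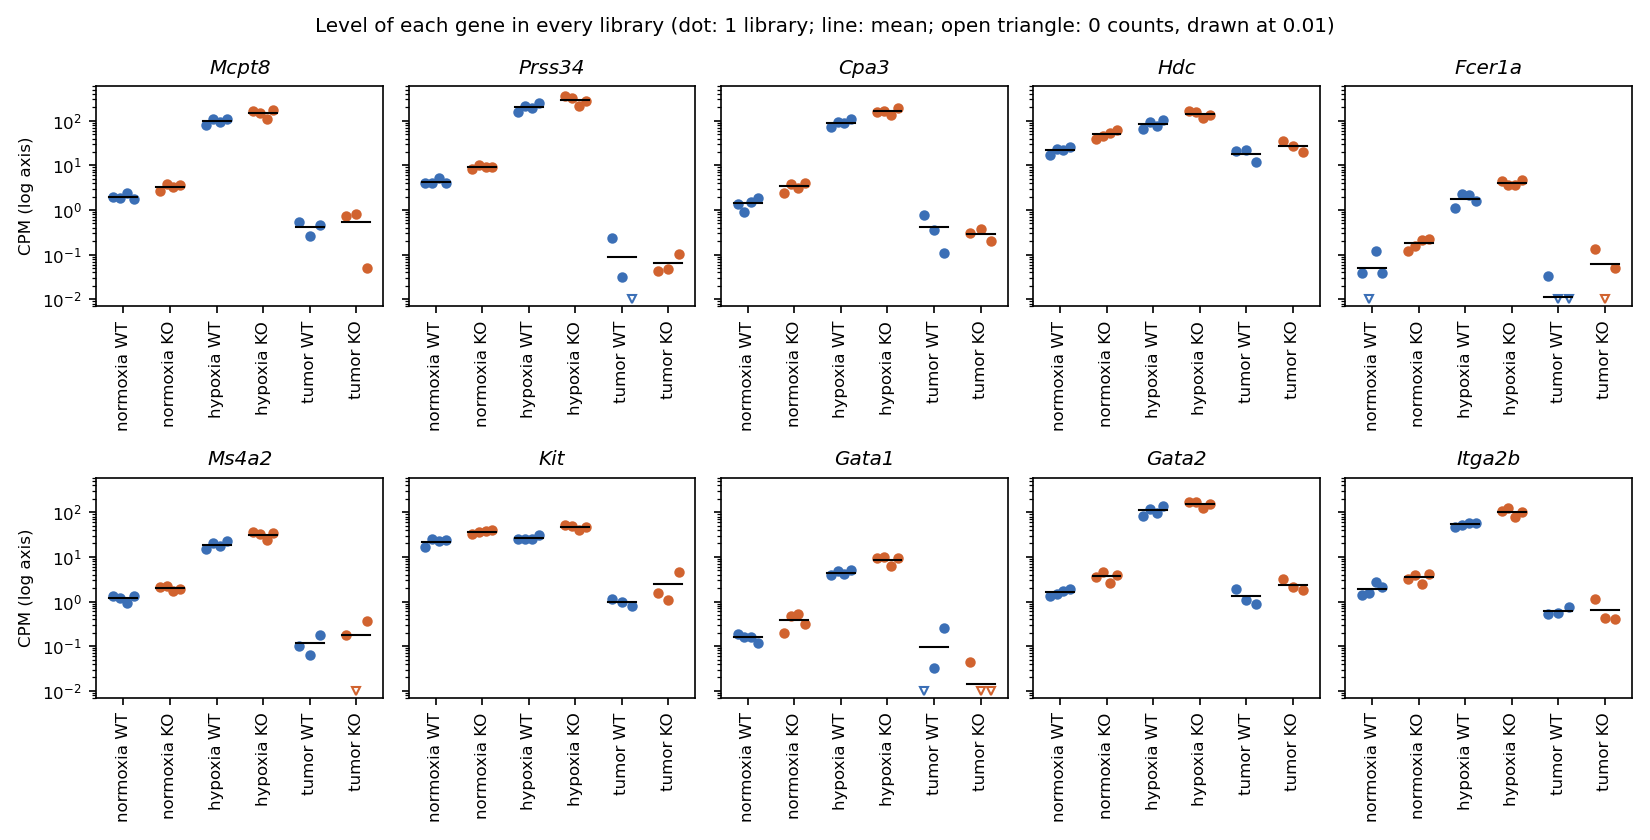
CPM of each gene in every library on a log axis, by experiment and genotype, with a line at the group mean and open triangles for libraries with 0 counts. KO dots of the culture groups lie above the WT dots for most genes, hypoxia cultures lie far above normoxia cultures for all but Hdc and Kit, and Hdc is the highest gene in tumors.

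Among the granule proteases, Mcpt8, a serine protease used as a marker of mouse basophils, measured 1.92, 1.85, 2.35 and 1.79 CPM in WT normoxia cultures and 2.63, 3.89, 3.22 and 3.68 CPM in KO. In hypoxia it measured 81.7, 109, 93.7 and 107 CPM in WT and 163, 149.9, 111 and 172 CPM in KO. Each KO culture was above each WT culture in both conditions, narrowly so in hypoxia, where KO replicate 3 stood just above the highest WT library. The log2 fold change was 0.76 ± 0.17 (SE) in normoxia (adjusted p = 0.0207) and 0.60 ± 0.13 in hypoxia (adjusted p = 0.00572). The normoxia call of Mcpt8 was lost when WT replicate 1, 2 or 4 or KO replicate 3 was left out, with adjusted p-values of 0.0508 to 0.0701.

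Prss34, a basophil serine protease, measured 4.03, 4.01, 5.19 and 4.09 CPM in WT normoxia cultures and 8.09, 10.01, 9.24 and 9.11 CPM in KO. Its hypoxia values were 156, 216, 192 and 251 CPM in WT and 359, 326, 216 and 283 CPM in KO. The genotypes were well separated in normoxia, whereas in hypoxia KO replicate 3 fell among the WT libraries. Its log2 fold change was 1.07 ± 0.13 in normoxia (adjusted p = 0.00105) and 0.53 ± 0.17 in hypoxia (adjusted p = 0.0321). The hypoxia call of Prss34 was lost on leaving out WT replicate 1, 2 or 3, or else KO replicate 1 or 2 (adjusted p of 0.0684 to 0.0855) and with no filter on low counts (0.184).

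Cpa3, the carboxypeptidase of mast cell granules that basophils and their progenitors also express, had 1.38, 0.905, 1.54 and 1.83 CPM in WT and 2.47, 3.93, 3.09 and 4.08 CPM in KO normoxia cultures. In hypoxia it had 71.0, 92.3, 89.9 and 107 CPM in WT and 160.5, 165, 134 and 195 CPM in KO. Neither condition showed overlap between the genotypes. The log2 fold change of Cpa3 was 1.25 ± 0.23 in normoxia (adjusted p = 0.00937), the largest of the 8 genes tested there, and 0.86 ± 0.13 in hypoxia (adjusted p = 0.000579).

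Hdc, histidine decarboxylase, makes histamine. It measured 16.8, 23.7, 21.8 and 26.03 CPM in WT and 38.4, 45.9, 52.4 and 62.9 CPM in KO normoxia cultures. In hypoxia it measured 65.2, 95.5, 76.0 and 104 CPM in WT and 165, 159, 113 and 137 CPM in KO. The genotypes did not overlap in either condition, and the log2 fold change was 1.17 ± 0.16 in normoxia (adjusted p = 0.00213) and 0.75 ± 0.16 in hypoxia (adjusted p = 0.0046).

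Of the IgE receptor, Fcer1a codes for the alpha chain that binds IgE. WT normoxia libraries held 0 to 3 counts of it and KO libraries 3 to 5, which is at or near the 3 counts that a count of 0 allows, so no fold is given. In hypoxia it measured 1.10, 2.28, 2.21 and 1.59 CPM in WT and 4.37, 3.64, 3.64 and 4.65 CPM in KO, with no overlap. Its log2 fold change there, 1.18 ± 0.21 (adjusted p = 0.00144), was the largest of the 10 genes. Ms4a2, the signal-amplifying beta chain, measured 1.31, 1.22, 0.933 and 1.31 CPM in WT and 2.06, 2.20, 1.76 and 1.93 CPM in KO normoxia cultures. Its hypoxia values were 14.7, 20.3, 17.7 and 23.0 CPM in WT and 35.3, 33.3, 24.2 and 33.5 CPM in KO. No KO library overlapped the WT libraries, and the log2 fold change of Ms4a2 was 0.73 ± 0.18 in normoxia (adjusted p = 0.0284) and 0.73 ± 0.15 in hypoxia (adjusted p = 0.00288). The normoxia call was lost when WT replicate 1, 2 or 4 was left out, or else KO replicate 1 or 3 (0.0536 to 0.0712), and with scaling by library size alone (0.0517).

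The gamma chain and the signalling proteins behind the receptor are shared with other myeloid cells. Of 13 tested genes of this list 0 rose and 0 fell in normoxia, with a median log2 fold change of 0.15, where 7.13% of all tested genes rose and 4.17% fell. In hypoxia 2 of 14 rose and 2 fell, with a median of 0.07, near the shares over all tested genes there (17.4% higher and 17.6% lower). Those that rose were the adaptors Grap2 (0.83) and Lat (0.55), and those that fell were Fcer1g, the gamma chain itself (−0.37), and the adaptor Lat2 (−0.40).

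Kit, the receptor for stem cell factor on progenitors and mast cells, measured 16.3, 24.8, 23.0 and 24.4 CPM in WT and 31.8, 36.6, 37.5 and 39.8 CPM in KO normoxia cultures. In hypoxia it measured 24.9, 24.7, 25.6 and 30.9 CPM in WT and 51.5, 48.3, 40.5 and 47.8 CPM in KO. The KO cultures were apart from the WT cultures in both conditions. The log2 fold change was 0.72 ± 0.13 in normoxia (adjusted p = 0.00873) and 0.82 ± 0.09 in hypoxia (adjusted p = 9.23e-05), the smallest p of the 10 genes there. A list of other growth factor and cytokine receptors of these cells also holds the signalling factors Stat5a and Stat5b. Of it 1 of 9 rose in normoxia (7.13% of all tested genes) and 4 of 10 in hypoxia (17.4%), with 0 lower. Il1rl1, the IL-33 receptor, rose in both, with log2 fold changes of 1.62 and 0.81. In hypoxia the others were Il5ra (1.10), the IL-5 receptor, Crlf2 (0.22), part of the TSLP receptor, and Stat5b (0.30).

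Gata2, the GATA factor of progenitors, mast cells and basophils, measured 1.34, 1.496, 1.70 and 1.94 CPM in WT and 3.56, 4.57, 2.54 and 3.99 CPM in KO normoxia cultures, with no overlap. In hypoxia it measured 82.3, 119.98, 97.7 and 138 CPM in WT and 171, 165, 126 and 156 CPM in KO, where KO replicate 3 lay below the highest WT library. Its log2 fold change was 1.17 ± 0.21 in normoxia (adjusted p = 0.00757) and 0.49 ± 0.15 in hypoxia (adjusted p = 0.0271), the smallest of the 10. The hypoxia call of Gata2 was lost on leaving out 1 of WT replicates 1 and 3 and KO replicates 1 and 2 (0.0568 to 0.0751). Gata1, which also drives the erythroid and megakaryocyte lineages, had 3 to 5 counts in WT and 5 to 12 in KO normoxia libraries and was not tested there. In hypoxia Gata1 measured 3.87, 4.73, 4.22 and 5.0 CPM in WT and 9.58, 9.75, 6.15 and 9.43 CPM in KO, without overlap, for a log2 fold change of 0.96 ± 0.15 (adjusted p = 0.000769). Of the partner and early haematopoietic regulator genes, 2 of 14 rose in normoxia, Ikzf1 by 0.46 and Gfi1 by 0.34 on the log2 scale. There 7.13% of all tested genes rose. In hypoxia 7 of 15 of these regulator genes rose, against 17.4% of all tested genes. The 4 with the smallest p in hypoxia were Nfe2 (0.50), Ikzf1 (0.56), Ikzf2 (0.89) and Cebpa (0.41).

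Itga2b, the integrin alpha chain CD41 of platelets, megakaryocytes and early mast cell and basophil precursors, measured 1.38, 1.54, 2.72 and 2.10 CPM in WT and 3.28, 4.01, 2.49 and 4.08 CPM in KO normoxia cultures. It was the 1 tested gene whose groups overlapped there, through KO replicate 3 and WT replicate 3. In hypoxia it measured 47.5, 53.1, 56.3 and 56.8 CPM in WT and 105, 126, 78.4 and 99.7 CPM in KO, all KO values being higher. The log2 fold change of Itga2b was 0.84 ± 0.24 in normoxia (adjusted p = 0.0455) and 0.93 ± 0.12 in hypoxia (adjusted p = 0.000194). Leaving out WT replicate 1, 2 or 4 or KO replicate 1, 2 or 4 ended the normoxia call of Itga2b (0.0637 to 0.122), as did scaling by library size alone (0.0538).

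**Figure D2:**
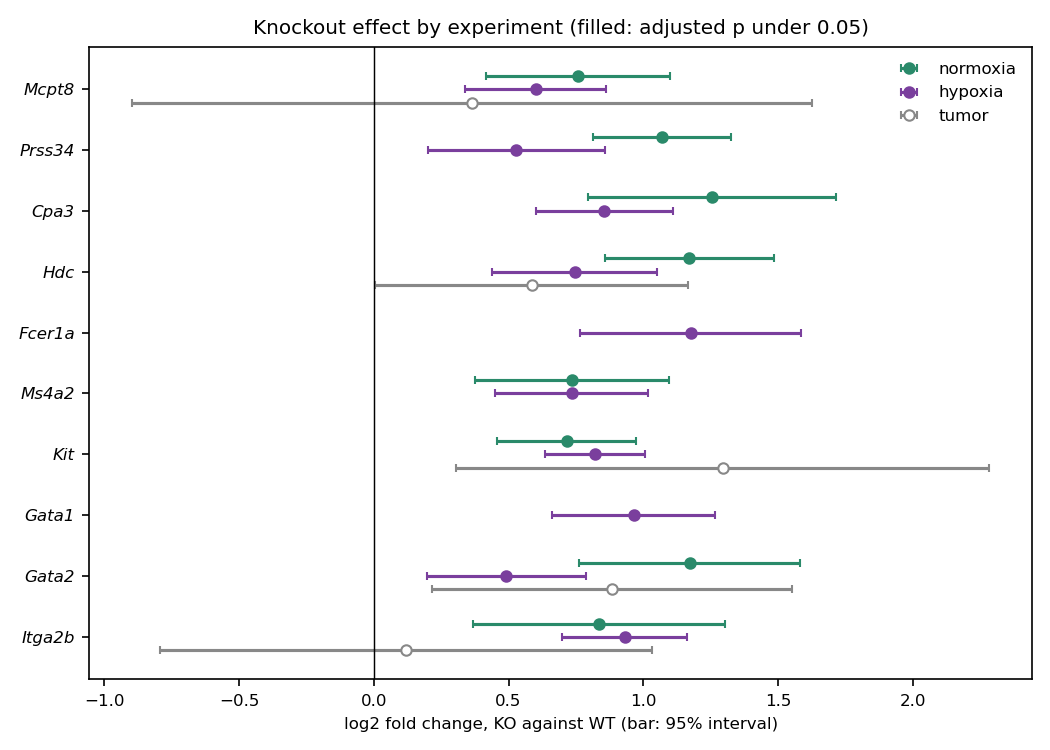
Log2 fold change of KO against WT for each gene and experiment, with bars for the 95% interval and filled points where the adjusted p was under 0.05. All normoxia and hypoxia points are filled and to the right of 0, from 0.49 (Gata2, hypoxia) to 1.25 (Cpa3, normoxia). The tumor points are open with wide bars, of which those of Hdc, Kit and Gata2 leave out 0. Bars are normal intervals and can be narrower than the test implies. That of Hdc in tumors is 0.005 to 1.17, with an unadjusted edgeR p of 0.0932.

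The KO effect was not shown to differ between the culture conditions. In a test of the difference itself over 16 libraries, 0 of 10 genes passed in edgeR, DESeq2 or limma-voom (0.477% of the 15293 genes tested in edgeR passed in either direction), and 2 had an unadjusted p under 0.05. The estimate was above 0 for 3 of the 10, with a median of −0.33. Gata2 had a smaller effect in hypoxia by 0.68 on the log2 scale (difference −0.68, 95% interval −1.22 to −0.13, edgeR adjusted p = 0.471), and Prss34 by 0.54 (difference −0.54, 95% interval −1.03 to −0.04, edgeR adjusted p = 0.523). The intervals of the other 8 genes included 0 and were wide. They ran from −1.61 to 0.44 for Fcer1a, from −0.95 to 0.42 for Gata1, from −0.93 to 0.14 for Cpa3, from −0.92 to 0.07 for Hdc and from −0.61 to 0.30 for Mcpt8. Those of Ms4a2 (−0.46 to 0.47), Itga2b (−0.43 to 0.61) and Kit (−0.22 to 0.44) lay more evenly around 0. Differences within these intervals could have been missed. That holds most for Fcer1a and Gata1, which held at most 5 and 12 counts per normoxia library. Both were too low to be tested for a KO effect in normoxia alone, so this test could hardly have called them. Without the 2 normoxia libraries that stood apart, 0 genes passed as well.

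In tumors 0 of 5 tested genes passed the test, where 3.28% of the 14370 genes tested rose and 3.04% fell, and none was higher in all KO samples than in all WT samples (13% of tested genes were). Hdc measured 21.2, 21.8 and 11.7 CPM in WT and 34.7, 27.8 and 19.7 CPM in KO tumors, which overlapped. Its log2 fold change was 0.59 ± 0.30 (adjusted p = 0.336). Hdc alone made up 62.5% to 78.0% of the summed CPM per kilobase of the 10 genes in WT tumors and 68.7% to 72.0% in KO. Its share was 22.5% to 28.2% in WT and 25.1% to 32.1% in KO normoxia cultures, and 3.27% to 3.66% in WT hypoxia cultures.

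Gata2 measured 1.95, 1.09 and 0.869 CPM in WT and 3.18, 2.17 and 1.86 CPM in KO tumors, with a log2 fold change of 0.88 ± 0.34 (unadjusted p = 0.0234, adjusted p = 0.163). Kit had 1.14, 0.994 and 0.797 CPM in WT and 1.53, 1.09 and 4.69 CPM in KO, and its log2 fold change of 1.30 ± 0.50 (unadjusted p = 0.0282, adjusted p = 0.18) rested largely on KO replicate 3. Without that library the log2 fold change of Kit was 0.41. DESeq2 also called 0 of the 5 genes. In edgeR with the replicate number as a block 2 passed, Hdc (0.59, adjusted p = 0.000149) and Gata2 (0.91, adjusted p = 0.0299). No label pairs the tumor samples, but each correlated best with its own number, so the tumor result depends on whether they are paired. Mcpt8 and Itga2b held 1 to 26 counts per tumor library and had log2 fold changes of 0.36 ± 0.64 and 0.12 ± 0.47. With 1 library left out these ran from −0.036 (without KO replicate 2) to 0.86 for Mcpt8 and from −0.55 (without KO replicate 1) to 0.35 for Itga2b, so the direction of both turned. Prss34, Fcer1a, Ms4a2 and Gata1 held at most 7 counts in any tumor library and Cpa3 at most 23, too few to be tested. Here 3 counts, the most that a count of 0 allows, correspond to 0.0946 to 0.157 CPM, for counting error only.

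Except for Kit, the difference between the culture conditions was larger than the one between the genotypes. In WT cultures 9 of 10 genes were higher in hypoxia (26.6% of 15293 tested genes were), each without overlap (24.4%), with a median log2 difference of 4.92. In KO cultures 10 of 10 were higher (26.1%), all without overlap (22.6%), with a median of 4.70. The medians over all tested genes were −0.01 and −0.02. Fcer1a and Gata1, too low to be tested in normoxia, passed the filter on low counts here through their hypoxia libraries. Their places in these counts therefore follow in part from the filter and are no separate support. Oxygen, the labelled time point (day 4 against 24 hours) and the count table change together, and the cytokines are stated for normoxia alone, so these effects cannot be told apart. Without the 2 normoxia libraries that stood apart, 9 and 10 genes were higher.

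The differences fell into 3 ranges. Those of Gata2 (6.07 ± 0.20 in WT), Cpa3 (5.99 ± 0.20), Mcpt8 (5.63 ± 0.17), Prss34 (5.56 ± 0.18), Itga2b (4.79 ± 0.19) and Ms4a2 (3.98 ± 0.17) were between 15.8-fold and 67.4-fold. Fcer1a (5.06 ± 0.42) and Gata1 (4.78 ± 0.27) also lay in this range. They rest on 0 to 3 and 3 to 5 counts per WT normoxia library, so their sizes depend on how such counts are fitted. Hdc differed by 1.95 ± 0.18 in WT and 1.53 ± 0.18 in KO, or 3.86-fold and 2.88-fold. Kit stood near its normoxia level, at 0.26 ± 0.12 in WT (adjusted p = 0.0755) and 0.37 ± 0.12 in KO (adjusted p = 0.0139). The KO call for Kit was lost without normoxia KO replicate 1 (0.0545).

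**Figure D3:**
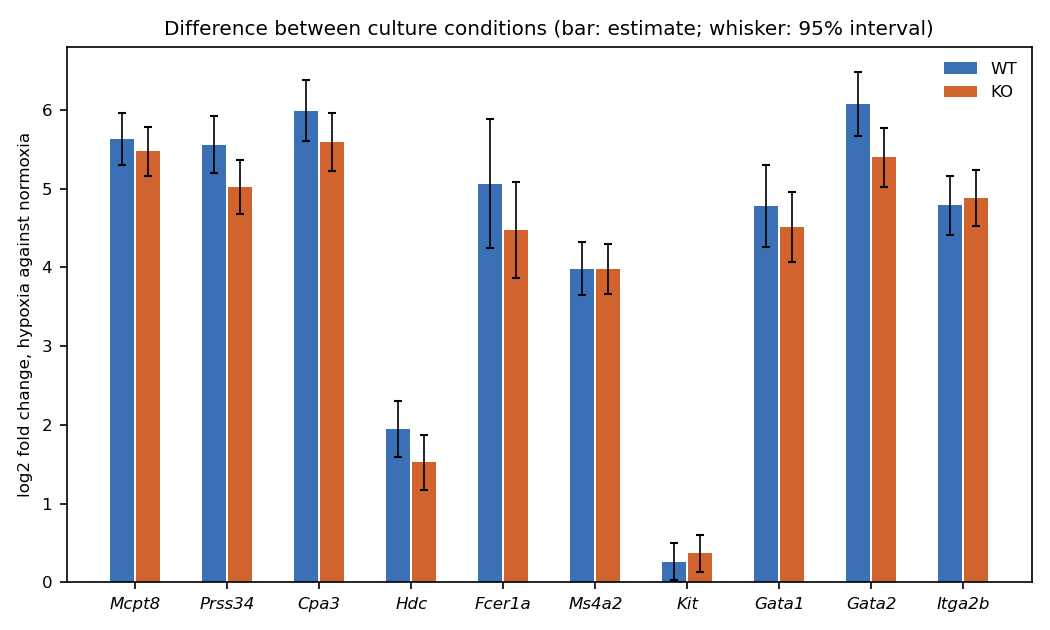
Log2 fold change of hypoxia against normoxia cultures for each gene in WT and KO, with whiskers for the 95% interval. Bars of 8 genes stand at about 4 to 6, that of Hdc at 1.95 in WT and 1.53 in KO, and that of Kit at 0.26 and 0.37.

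The order of the genes by CPM per kilobase of exon differed accordingly between conditions. In WT normoxia cultures Prss34 (3.55 ± 0.47, SD, n = 4), Hdc (3.45 ± 0.62), Kit (2.48 ± 0.44) and Mcpt8 (1.98 ± 0.26) led, and each overlapped the next in that order. Cpa3 followed at 0.93 ± 0.25, apart from its neighbours on both sides. Ms4a2, Itga2b and Gata2 lay between 0.30 and 0.42 and overlapped in that order, and Gata1 and Fcer1a came last at 0.06 and 0.05.

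In WT hypoxia cultures the 3 proteases led with no overlap between them, Prss34 at 167 ± 32.9, Mcpt8 at 98.2 ± 12.8 and Cpa3 at 59.4 ± 9.72 CPM per kilobase. Gata2 (20.3 ± 4.54), Hdc (13.3 ± 2.80) and Itga2b (9.80 ± 0.79) came next, each overlapping the following one. Ms4a2 (6.72 ± 1.26) and Kit (2.98 ± 0.33) stood apart from their neighbours, and Gata1 (1.83 ± 0.21) and Fcer1a (1.80 ± 0.56) overlapped at the bottom. Prss34 took 42.4% to 45.6% of the summed level of the 10 genes in WT hypoxia cultures and 23.2% to 28.5% in WT normoxia cultures. Kit took 0.678% to 0.926% and 15.6% to 20.9%.

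Within the hypoxia groups, some replicates were low or high for most of the 10 genes at once. There, WT replicate 1 was the lowest of its group for 9 of the 10 genes and KO replicate 3 for all 10, while WT replicate 4 was the highest for 8. Without WT replicate 1, 8 genes rose in KO hypoxia cultures, Prss34 and Gata2 losing their calls, and without KO replicate 3 all 10 did. Normoxia libraries had a weaker common order, the most consistent being KO replicate 1, the lowest of its group for 7 of 10. Over the 28 pairs of the 8 genes tested in both tables, the deviations of log2 CPM from the group means had a median Pearson r of 0.56 across 16 culture libraries (0.16 to 0.83). The median was 0.82 within the 8 hypoxia libraries (0.60 to 0.98) and 0.32 within the 8 normoxia libraries (−0.63 to 0.89), where the counts were lower. In the hypoxia libraries r lay between 0.06 (with Kit) and 0.59 (with Mcpt8) for the pairs of Fcer1a, and between 0.79 and 0.94 for those of Gata1 with the other 8 genes. Mcpt8 with Prss34 and Hdc with Kit had the highest r over the 16 libraries, 0.83 each, and Ms4a2 with Itga2b the lowest. These values share libraries and their depth and are given as a description.

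**Figure D4:**
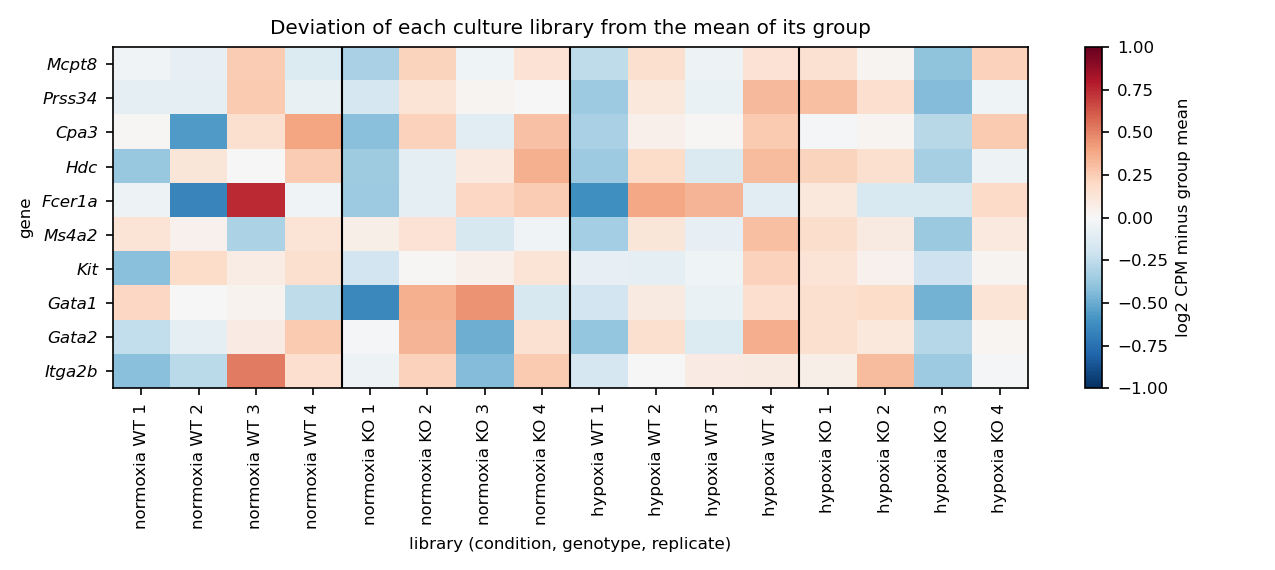
Log2 CPM of each gene in each of 16 culture libraries minus the mean of its group, from blue (below) to red (above). The columns of hypoxia WT replicate 1 and hypoxia KO replicate 3 are blue for all 10 genes, and normoxia columns are mixed.

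The genes whose deviations were most like the mean of the 8 genes over 16 libraries were Lama5 (r = 0.85), Cd200r3 (0.82), Tmem64 (0.80), Padi2 (0.79), Dnajc6 (0.77) and Mllt11 (0.74). Cd200r3 codes for an activating receptor of basophils and mast cells. For single genes, a ranking added after the values were seen put Cebpa (0.87), Gp1ba (0.82) and Pf4 (0.81) nearest to Itga2b and Per2 (0.91) nearest to Kit. The nearest genes of the other members are not named here. All these r are the highest picked from many genes over 16 libraries, where high values also arise by chance, and they were not tested.

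In the longer list of other mast cell and basophil genes, fewer passed the test. In normoxia 5 of 14 tested rose and 0 fell (7.13% and 4.17% of all tested genes), with a median log2 fold change of 0.32. The 4 with the smallest p were Ifitm1 (0.92), Alox5, the leukotriene-forming lipoxygenase (0.47), Adora3, an adenosine receptor (0.66), and Cd200r3 (1.02). In hypoxia 8 of 21 rose and 2 fell (17.4% and 17.6% of all tested genes), with a median of 0.30. There Alox5 (0.49), Cd63, a granule membrane protein (0.41), and Cyp11a1, a steroid-forming enzyme (0.90), rose, and Mitf, a mast cell transcription factor, fell (−0.49). The difference in how often the 2 groups of genes rose was not tested.

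Tpsb2, Cma1 and Tpsab1, which mark connective tissue mast cells, were near 0 in the cultures (named after their values were seen). Tpsb2, a tryptase, held 6 to 23 counts in hypoxia libraries and at most 1 in normoxia libraries. Cma1, a chymase, held 1 to 14 counts and Tpsab1, another tryptase, at most 2 in hypoxia libraries. In the same hypoxia libraries Mcpt8 held at least 2451 counts and Prss34 at least 4682. Other genes that mast cells express were well above 0 there. Cpa3 lay at 71.0 to 195 CPM, Kit at 24.7 to 51.5 CPM and Mitf at 20.1 to 42.3 CPM. Which cell type gave the transcripts was not tested.

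Markers of several other cell types moved in the same comparisons, and their part in the results above was not tested. Over all tested genes 7.13% rose and 4.17% fell in normoxia, and 17.4% rose and 17.6% fell in hypoxia. Of the eosinophil markers 4 of 7 rose in normoxia and 9 of 9 in hypoxia, with medians of 1.40 and 1.21. Their summed level went from 94.7–123 CPM in WT to 125–188 CPM in KO normoxia cultures and from 1167–1862 to 2317–4174 CPM in hypoxia. Epx, eosinophil peroxidase, and Prg2, a major granule protein, had log2 fold changes of 1.501 and 1.40 in normoxia, and Siglecf and Ccr3 1.01 and 1.85 in hypoxia. Of the megakaryocyte markers, which Itga2b also belongs to, 3 of 8 rose and 1 fell in normoxia, and 13 of 14 rose in hypoxia with a median of 0.998. Their summed level in hypoxia was 10010 to 12735 CPM in WT and 14347 to 18266 CPM in KO, of which Thbs1, a secreted matrix protein gene that other myeloid cells express too, made up 9787 to 12513 and 13937 to 17878 CPM.

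Neutrophil markers rose in 9 of 12 cases in normoxia and 11 of 12 in hypoxia, with medians of 0.92 and 0.88. Their sums were 32508 to 43586 CPM in WT and 45644 to 68869 CPM in KO normoxia cultures, and 26461 to 35825 and 53814 to 66849 CPM in hypoxia. In the cultures erythroid markers went the other way, with 0 of 2 higher and 1 lower in normoxia. In hypoxia 0 of 6 were higher and 3 lower, the 3 being the globin genes Hba-a1, Hba-a2 and Hbb-bt. Of the macrophage markers 3 of 10 rose in normoxia, and in hypoxia 1 of 10 fell and 0 rose. Of the early progenitor markers 1 of 11 fell in normoxia, and in hypoxia 2 of 12 rose and 2 fell. In hypoxia the counts of both lists were near or below the shares over all tested genes. Of the B and plasma cell markers 2 of 4 rose in each condition, Igkc and Jchain. T and NK cell markers rose in 0 of 2 and 2 of 3 cases, and epithelial and stromal markers in 1 of 2 and 3 of 6, with 1 lower in hypoxia. No eosinophil, megakaryocyte, neutrophil or macrophage marker was at 0 in each library of a culture group, but some were at 0 in single normoxia libraries. Il5ra was at 0 in 3 of 4 WT and 1 of 4 KO libraries, Gp1bb in 3 of 4 KO, Gp6 in 2 of 4 WT and Ccr3 in 1 of 4 WT. In the hypoxia against normoxia comparison of WT cultures, 8 of 9 eosinophil and 14 of 14 megakaryocyte markers were higher in hypoxia, with medians of 5.64 and 4.00. There 1 of 12 neutrophil markers was higher and 7 were lower. Over all tested genes 26.6% were higher and 25% lower.

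**Figure D5:**
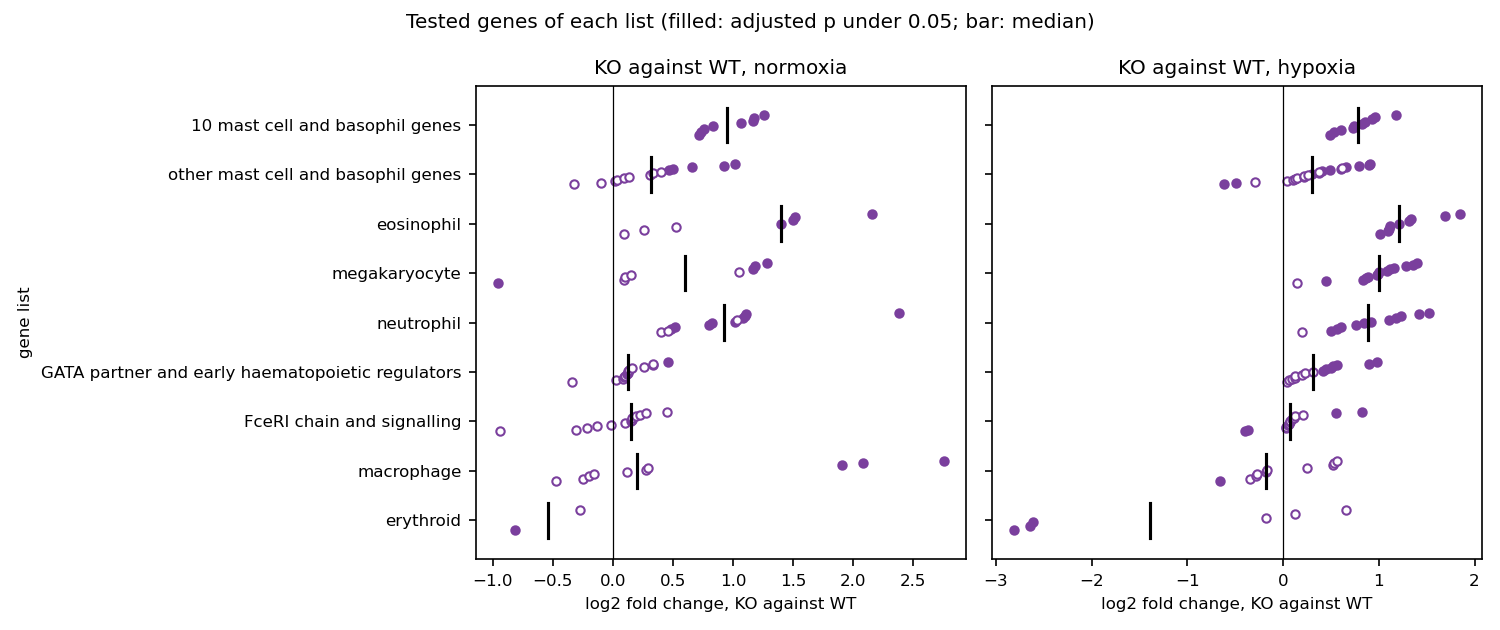
Log2 fold change of KO against WT in normoxia (left) and hypoxia (right) for the tested genes of each list, filled where the adjusted p was under 0.05, with a bar at the median. In both panels the medians of the 10 genes (0.95 and 0.78), the eosinophil and the neutrophil markers lie well above 0, those of the receptor signalling genes lie near 0 and those of the erythroid genes below 0.

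In tumors 0 of 3 eosinophil, 0 of 7 megakaryocyte and 0 of 10 macrophage markers passed the test, where 3.28% of all tested genes rose and 3.04% fell. Erythroid markers, unlike in the cultures, rose in 3 of 7 cases and fell in 0, with a median log2 fold change of 0.66. Of these markers Hba-a1 lay at 27.4 to 40.2 CPM in WT and 51.0 to 55.8 CPM in KO tumors. Of 14 tested genes of the longer mast cell and basophil list, 1 fell and 0 rose there, the former being Gzmb, which cytotoxic lymphocytes also express (−1.40). Of the T and NK cell markers 4 of 9 fell in KO tumors. Of 14 receptor signalling genes 1 fell, Lat (−1.59), an adaptor that T cells also use. Macrophage markers summed to 9045 to 10363 CPM in WT and 8786 to 10011 CPM in KO tumors, and neutrophil markers to 279 to 310.5 and 349.7 to 407 CPM. Among the epithelial and stromal markers, Epcam lay at 0.14 to 0.67, Krt8 at 0.096 to 0.54 and Col3a1 at 308 to 358 CPM in WT tumors. In KO tumors these were 0 to 0.66, 0 to 5.47 and 377 to 482 CPM. Which cells made up the tumor samples was not tested.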

How the data were processed

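The values used are raw counts per Ensembl identifier, deposited by the authors as 1 table an experiment. Subread, featureCounts and the build GRCm38.p6 are named in the submitters' processing notes. The strand setting and versions are not given in the sources used here, so reads of antisense neighbours cannot be told apart. The DESeq2-normalized tables were not used. Groups and replicate numbers came from sample titles. KO culture columns carry a code and were read as KO by elimination. No pair of libraries in a group agreed within counting error.

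The count tables were fitted in R 4.3.3 with edgeR 4.0.16 (filterByExpr, minimum count 10, TMM, robust quasi-likelihood test, Benjamini-Hochberg adjustment over all tested genes, threshold 0.05). Each experiment was fitted alone, and the hypoxia against normoxia and difference-of-effects comparisons used the 16 cultures in 1 fit. SE is the log2 fold change over the root of F, and for the difference of effects it combines those of both effects. Intervals are 95% normal intervals from the SE. DESeq2 1.42.0 and limma 3.58.1 gave alternatives, with other scalings, no filter, the replicate number as a block and single libraries left out. The fit was tested on simulated counts. Positions and exonic lengths came from GENCODE M21 and promoter windows from RefSeq. Likeness and pair correlations used log2 CPM with a prior count of 2.

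The 10 genes, the lists and the tests were chosen with earlier results of these data known, so a pattern among them is no independent evidence. All 10 genes are named in each comparison. From other lists up to 4 genes with the smallest p are named, and from the likeness ranking the 6 highest. Lilrb4a, a symbol on several lines of the tables, was left out of its list.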

Additional observations from a re-analysis of the deposited data

Results flagged for a closer look

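In groups of 4 libraries, a value was singled out where its gap to the nearest other value took a larger part of the group's range than Dixon's critical value allows. This held for 3 of the 40 gene and group combinations, or 7.5%, where chance gives about 1 in 20. Prss34 in normoxia WT replicate 3 was the highest of its group at 5.19 CPM. Kit in hypoxia WT replicate 4 was the highest of its group at 30.9 CPM. Gata1 in hypoxia KO replicate 3 was the lowest of its group at 6.15 CPM.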

How the results depend on the processing

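Over 880 values of the 10 genes under alternatives, 832 kept direction and side of the threshold, 28 lost the call, 3 gained it and 17 changed sign, all of them below the threshold before and after. With 1 library left out, these were Mcpt8 (−0.036 to 0.86) and Itga2b (−0.55 to 0.35) in tumors and Ms4a2 (−0.10 to 0.11) and Itga2b (−0.11 to 0.23) for the difference of effects, where Ms4a2 was also −0.012 with no filter and Itga2b −0.029 without the 2 libraries that stood apart. With 1 library left out, 5 to 8 genes rose in normoxia, 8 to 10 in hypoxia and 0 in tumors, with 5 in normoxia without WT replicate 1, 2 or 4. Scaling by library size alone left 6 in normoxia, and no filter left 9 in hypoxia. Same-numbered libraries did not deviate together throughout (r of −0.06 to 0.37 in normoxia, −0.16 to 0.02 in hypoxia, 0.08 to 0.22 in tumors, where each sample correlated best with its own number). With the replicate block, 8 and 10 genes rose in normoxia and hypoxia and 2 in tumors, Hdc (0.59, adjusted p = 0.000149) and Gata2 (0.91, adjusted p = 0.0299). Kit then passed in WT hypoxia against normoxia (0.28, adjusted p = 0.0281). Counts over all genes moved more. In normoxia 1577 genes were called, 2388 by DESeq2, 469 to 2233 with 1 library left out and 2881 without the 2 libraries that stood apart. In tumors 908 were called, 1363 with no filter, 2266 with the block and 444 to 1072 with 1 library left out. For the difference of effects 73 were called, 195 by DESeq2, 40 with the block, 40 to 100 with 1 library left out and 126 without those 2 libraries. With no filter, Fcer1a and Gata1 in normoxia had adjusted p-values of 0.151 and 0.11. Depth limits Fcer1a and Gata1 in normoxia and 5 of the genes in tumors.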
